A study of Mus musculus with 48 samples.

Results

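Peaks of open chromatin around the mouse gene Gfi1 were described in 48 ATAC-seq libraries. The locus was taken as a window of 90 kb on chromosome 5, 108130000 to 108220000 (mm9). Every deposited peak that overlapped it was kept, and peaks of different lists were merged where they overlapped by at least 1 bp. This gave 362 peaks in 30 regions, of 258607 regions over the whole genome. Gfi1 lies near 108145000 to 108155000 on the minus strand, so higher coordinates lie upstream. Distances below are in kb from these approximate gene edges to the middle of a region.

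Gfi1 is a zinc-finger protein that represses transcription by recruiting the histone demethylase Lsd1 and its partner CoREST. In myeloid progenitors it favours the neutrophil fate over the monocyte fate and counteracts PU.1, and mice without it lack mature neutrophils. The gene is known to be controlled by its promoter, by its own protein and by distal elements upstream that are bound by blood transcription factors such as Runx1, Scl and PU.1.

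The libraries came from 24 clones of ER-Hoxb8 cells, which are mouse bone marrow progenitors held in an immature state by a Hoxb8 protein that depends on oestrogen. Each clone gave 1 progenitor library (labelled granulocyte-monocyte progenitor cells, GMP) and 1 monocyte library, and each is a single clone measured 1 time per stage. P-values therefore measure the spread between clones together with that between libraries. All cells carried ER-Hoxb8, and the stated medium was RPMI with serum, antibiotics and stem cell factor. The labels give no mouse strain, age or genotype. The stage labels were not checked against marker genes, since no mm9 annotation was used.

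Progenitor lists held 11114 to 136322 peaks (median 82430) and monocyte lists 231 to 38786 (median 21099). A peak missing from a short list may thus have fallen below what that library could show. The monocyte libraries of clones 15 to 25 stood apart from those of clones 1 to 13, with shorter lists in most, and clone 20, with the longest monocyte list, held almost none of the locus regions. Results are therefore given over all usable libraries and again within clones 1 to 13. A bulk library cannot tell open chromatin in fewer cells from less open chromatin per cell.

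In RefSeq (GRCm38.p6), the neighbours of Gfi1 are the long noncoding RNA genes 4930428O21Rik and Gm42147, and Evi5 follows Gm42147. RefSeq annotates 2 start sites of Gfi1, 1462 bp apart. The 250 bases before each are shown because 3 regions cluster at the 5′ edge of the gene. They lie on the minus strand at chr5:107725806-107726055 and chr5:107724344-107724593 (GRCm38.p6). Capitals mark matches to any of 6 short motifs searched on both strands.
upstream start: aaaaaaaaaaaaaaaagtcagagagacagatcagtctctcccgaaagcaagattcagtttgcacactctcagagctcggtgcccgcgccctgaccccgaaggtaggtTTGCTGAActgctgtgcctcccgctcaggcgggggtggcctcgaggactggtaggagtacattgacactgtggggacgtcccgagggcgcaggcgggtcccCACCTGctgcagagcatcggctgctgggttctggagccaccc
downstream start: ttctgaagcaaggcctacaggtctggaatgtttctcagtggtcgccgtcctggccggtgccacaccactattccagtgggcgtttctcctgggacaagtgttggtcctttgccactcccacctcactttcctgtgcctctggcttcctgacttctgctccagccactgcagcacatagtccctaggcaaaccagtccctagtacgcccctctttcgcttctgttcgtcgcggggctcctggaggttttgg
The first sequence holds a C/EBP-type match (TTGCNNAA), beginning 143 bases before the start. That motif is found in 9.56% of 32851 RefSeq promoter sequences of the same length. It also holds an E-box match on the opposite strand (CAGNTG, a motif found in 44.8% of promoters), beginning 42 bases before the start. The second sequence held no match. The Gfi1 motif searched was AAATCA, present in 12.4% of promoters. For PU.1 it was GAGGAA, present in 23.3%. For Runx factors the letters TGTGGT were used, present in 14%. For Gata factors they were AGATAA, present in 9.99%. No motif overlapped another. The mm9 peaks could not be laid over these GRCm38 bases, so no match is tied to a peak.

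Of the 30 regions, 11 were peaks in both stages, 16 (53.3%) in progenitor lists alone and 3 (10%) in monocyte lists alone. Over the 258607 regions of the genome, 61.8% were in progenitor lists alone and 17.4% in monocyte lists alone. Progenitor lists held 1 to 21 locus peaks (median 10) and monocyte lists 0 to 8 (median 4). Per 10000 peaks of the list, these were 1.28 locus peaks in progenitors and 2.22 in monocytes (medians). The number of locus peaks went with the length of the list (r = 0.923 in progenitors, 0.746 in monocytes, n = 24 each), so presence alone does not compare the stages.

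**Figure D1:**
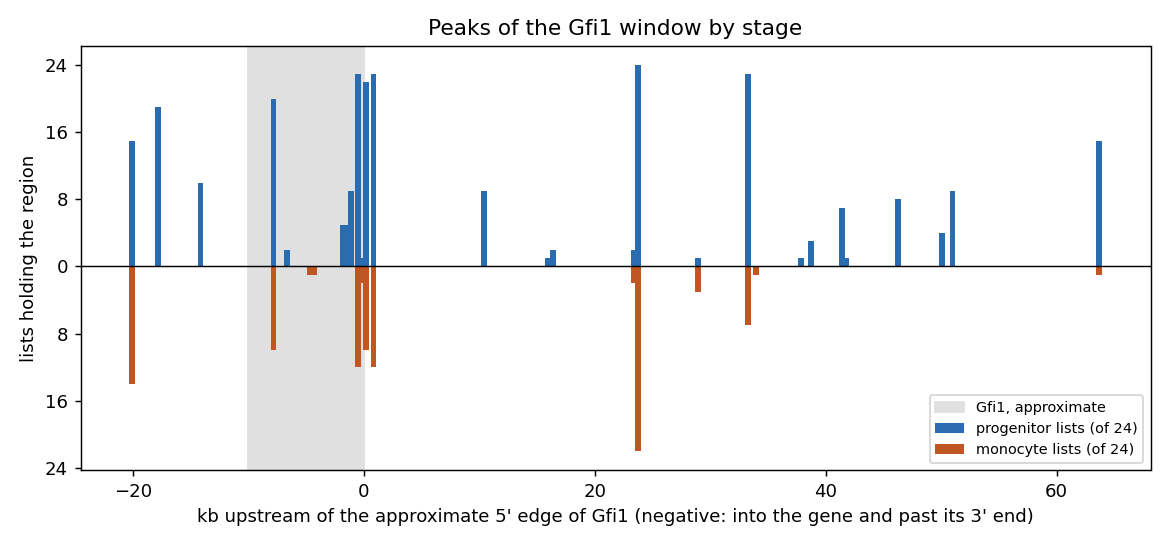
Number of the 24 progenitor lists (blue, upward) and 24 monocyte lists (orange, downward) holding each of the 30 regions, against distance in kb from the approximate 5′ edge of Gfi1; grey marks the gene. The tallest bars in both directions stand 23.7 kb upstream, with 24 progenitor and 22 monocyte lists.

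The most widely held region lay 23.7 kb upstream, at 108178588 to 108178890. It was a peak in 24 of 24 progenitor and 22 of 24 monocyte lists, missing only from the monocytes of clones 20 and 22. Regions anywhere in the genome that were peaks in all 24 progenitor lists were peaks in a median of 18 monocyte lists (quartiles 15 to 21). Its score, the first number the authors give for each peak, was the highest of the locus in 15 of 24 progenitor and 21 of 24 monocyte libraries. Within clones 1 to 13 these numbers were 10 of 13 and 13 of 13.

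A second distal region lay 9.55 kb farther out, 33.3 kb upstream of the gene, at 108188151 to 108188422. It was a peak in 23 progenitor lists but in only 7 monocyte lists, all of them of clones 1 to 13. Regions elsewhere with 23 progenitor lists had a median of 11 monocyte lists (quartiles 7 to 14). It was the highest peak of the locus in the progenitors of clones 5, 15, 16, 19 and 25, tied for highest in clone 21, and in no monocyte library.

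A cluster of 3 regions spanned 1.68 kb at the approximate 5′ edge, with a rare region between them (0.05 kb inside, in 1 progenitor and 2 monocyte lists). Which annotated start, if any, these regions cover was not determined. The innermost, 0.48 kb inside the edge (108154291 to 108154749), was a peak in 23 progenitor and 12 monocyte lists. The middle one, 0.21 kb upstream (108155081 to 108155336), was in 22 and 10. The outer one, 0.83 kb upstream (108155682 to 108155973), was in 23 and 12. For these numbers of progenitor lists, regions elsewhere had medians of 11, 6 and 11 monocyte lists. The monocyte lists were 12, 10 and 11 of the 13 of clones 1 to 13, and 0, 0 and 1 of the 11 of clones 15 to 25.

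Another region lay on the other side of the gene, 10.1 kb past its 3′ edge, at 108134831 to 108135025. It was nearly as frequent in monocyte as in progenitor lists, with 14 and 15 of 24. Of 3665 regions elsewhere with 15 progenitor lists, the median number of monocyte lists was 0 (quartiles 0 to 0). Only 7 clones held it in both stages, while 8 held it as progenitors alone and 7 as monocytes alone. A region inside the gene, 7.82 kb from the 5′ edge (108147003 to 108147366), was a peak in 20 progenitor and 10 monocyte lists. Regions elsewhere with 20 progenitor lists had a median of 0 monocyte lists (quartiles 0 to 3).

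Within a list, each peak was placed by the percent of that list's peaks with a lower score. The 23.7-kb region stood at 54.8% to 93.8% of the progenitor lists (median 89.8%). In the monocyte lists that held it, it stood at 5.28% to 99.0% (median 87.1%). In the monocytes of clones 15, 17, 18 and 25 it ranked 117th of 7378, 83rd of 5856, 128th of 10966 and 144th of 15260 peaks. In the other monocyte libraries it ranked no higher than 621st, and in clones 19 and 21 it stood at only 8.32% and 5.28%.

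The 5′ edge regions and the 33.3-kb region stood high within progenitor lists and lower within the monocyte lists that held them. The innermost edge region had a median of 88.0% in progenitor lists (52.1% to 93.8%) and 50.2% in the monocyte lists that held it (7.03% to 62.2%). The middle one had 88.4% (35.3% to 92.0%) and 62.1% (35% to 71.7%), and the outer one 79.0% (28.2% to 86.3%) and 45.1% (13.4% to 66.5%). The 33.3-kb region had 86.1% (62.8% to 96.1%) and 37.4% (0.0248% to 51.9%). The region past the 3′ edge kept to the middle of both kinds of list, with medians of 48.1% and 50.6%. These percentiles describe each list and do not compare stages, because the lists differ in length.

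**Figure D2:**
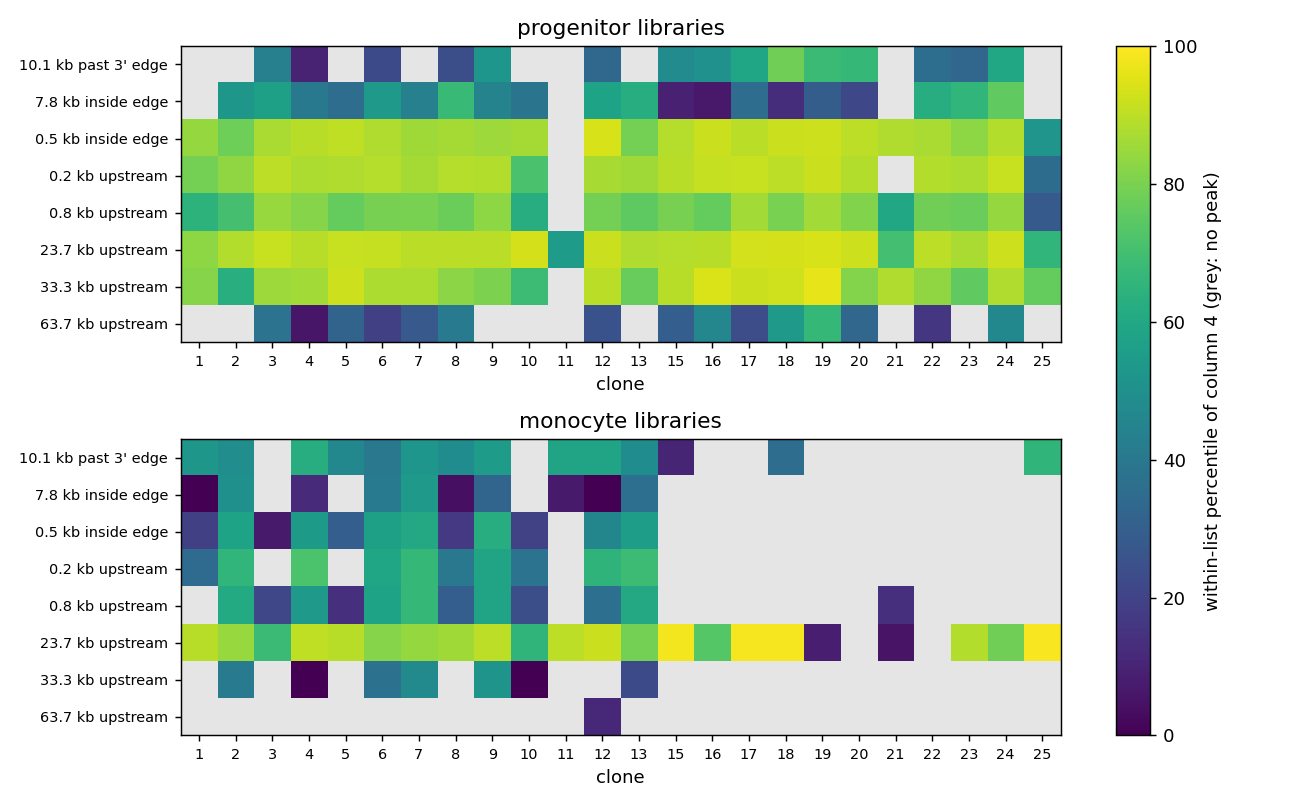
Within-list percentile of the peak score (colour, in percent) for 8 regions (rows, by distance from the gene edges) in each clone (columns), progenitor libraries above and monocyte libraries below; grey means no peak. The 23.7-kb upstream row is filled in 22 of 24 monocyte libraries, while the rows at the 5′ edge are nearly all grey in the monocytes of clones 15 to 25.

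To compare stages, each region was placed against one fixed set of 3259 regions that were peaks in all 42 libraries with at least 10000 peaks (24 progenitor and 18 monocyte). The anchor percentile is the percent of these anchors with a lower score in that library, and it is 0 where the region was no peak. On this scale the 23.7-kb region was higher in monocytes and the middle edge region higher in progenitors. Over the genome, 0.781% of 112229 regions were called higher in monocytes and 2.58% higher in progenitors (limma, Benjamini-Hochberg adjusted p below 0.05). Of the 17 locus regions tested, 1 was called in each direction.

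The 23.7-kb region had anchor percentiles of 1.5% to 27.0% in progenitors (median 5.40%) and 0% to 97.6% in monocytes (median 29.0%). The groups overlapped. Its mean rose by 25.5 ± 5.68 points (SE, 24 and 18 libraries), from 7.35% to 32.8% (limma, adjusted p = 0.00324). Monocytes were higher in 15 of 18 clones, and clones 10, 20 and 21 went the other way. With the clone as a block the rise was 24.8 ± 6.61 points and missed the threshold (limma, adjusted p = 0.0630). By the authors' second score the rise was 3.32 ± 8.78 points and was not called (limma, adjusted p = 0.729). Both libraries above 90% were monocytes, of clones 18 and 25.

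Within clones 1 to 13, which exclude those libraries, the rise was seen as well. Against the 8188 anchors of those 26 libraries, the 23.7-kb region stood at 11.4% to 54.9% in progenitors (median 27.3%) and at 36.5% to 70.6% in monocytes (median 58.3%). The rise was 27.4 ± 4.61 points (SE, n = 13 each; limma, adjusted p = 0.000285), seen in 12 of 13 clones. With the clone as a block it passed as well (limma, adjusted p = 0.00815).

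The middle edge region stood low among the anchors in both stages. It had 0% to 7.09% in progenitors (median 2.01%) and 0% to 1.60% in monocytes (median 0%). Its mean fell by 2.04 ± 0.427 points (SE; limma, adjusted p = 0.00157), with monocytes lower in 15 of 18 clones. With the clone as a block it still passed (limma, adjusted p = 0.0417). Within clones 1 to 13 it fell short (-6.58 ± 2.40 points; limma, adjusted p = 0.0525).

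For the innermost edge region and the 33.3-kb region the call depended on the scaling and on the libraries. The innermost edge region had 0% to 38.0% in progenitors (median 1.58%) and 0% to 0.215% in monocytes (median 0%), a difference of -4.26 ± 1.93 points (limma, adjusted p = 0.443). The 33.3-kb region had 0% to 38.0% (median 0.967%) and 0% to 0.0307% (median 0%), a difference of -5.33 ± 2.21 points (limma, adjusted p = 0.332). In 17 and 16 of 18 clones monocytes were the lower, and in 0 the higher. The 38.0% of both regions belongs to the progenitors of clone 21. Over the same 42 libraries both were called lower in monocytes with normal scores, which spread out low percentiles (limma, adjusted p = 7.88e-08 and 5.26e-05). By the authors' second score they were called as well (limma, adjusted p = 0.0138 and 3.04e-05).

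Within clones 1 to 13, whose lists allow a deeper set of anchors, both were lower in monocytes. The innermost edge region went from a mean of 14.1% to 3.00%, a difference of -11.1 ± 2.75 points (limma, adjusted p = 0.00875), lower in 12 of 13 clones. The 33.3-kb region went from 8.67% to 0.465%, a difference of -8.21 ± 2.25 points (limma, adjusted p = 0.0157), lower in 11 of 13 clones. With the clone as a block the adjusted p-values were 0.0293 and 0.0371 (limma). In these clones 4.42% of regions in the genome were called higher in monocytes and 16% higher in progenitors, so calls in this second direction were common.

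**Figure D3:**
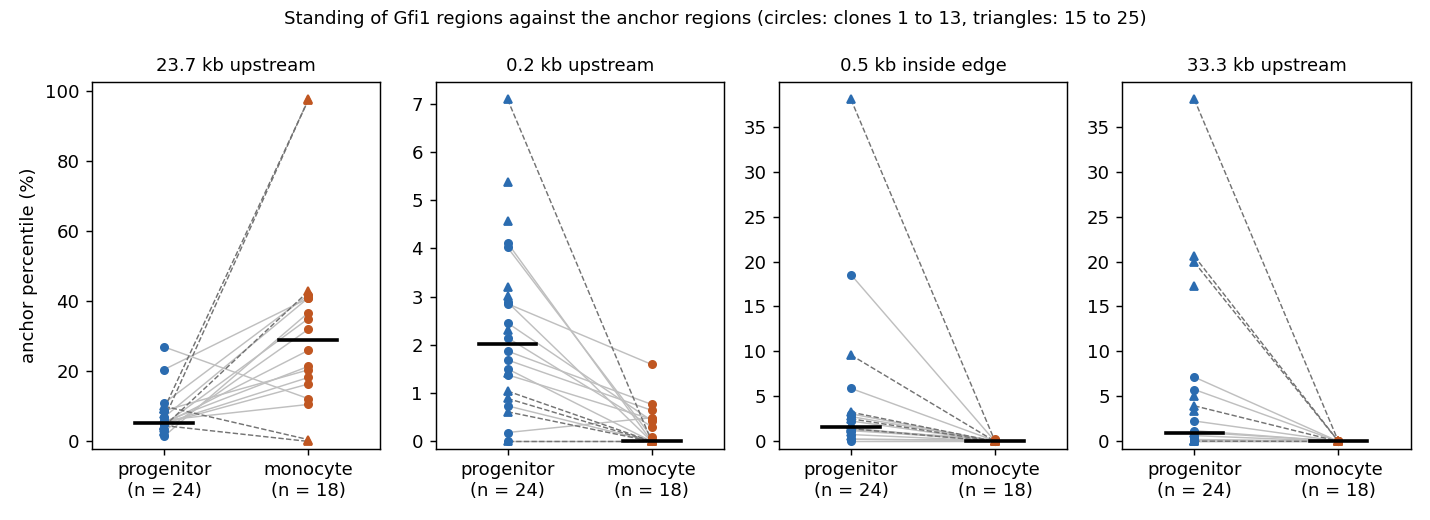
Anchor percentile (percent of anchor regions with a lower score) of 4 regions in 24 progenitor and 18 monocyte libraries; lines join the libraries of a clone, bars are medians, circles are clones 1 to 13 and triangles clones 15 to 25, and each panel has its own scale. The 23.7-kb region has medians of 5.40% and 29.0%, and for the other 3 regions the monocyte median is 0%.

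Among clones 1 to 13 the anchor percentile of the region past the 3′ edge was 0% to 0.195% in progenitors and 0% to 11.6% in monocytes (medians 0% and 3.27%). The mean rose by 3.65 ± 0.901 points (SE, n = 13 each; limma, adjusted p = 0.00826; 0.0238 with the clone as a block), in 11 of 13 clones. Over all 42 libraries the rise of 1.55 ± 1.01 points did not pass (limma, adjusted p = 0.811), and the highest monocyte value was 20.5%. The outer edge region, with -0.114 ± 0.246 points, passed in neither set of libraries (limma, adjusted p = 1 and 0.294), and its sign turned to 1.37 points within clones 1 to 13.

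Presence among the highest peaks gave a second comparison, in which every list was cut to its 10000 peaks of highest score. A cut of fixed length takes a larger share of most monocyte lists than of most progenitor lists. In the cut lists, 6 locus regions appeared and 4 were held by at least 5 libraries and tested. Of all 13781 regions tested, 11.5% were higher in monocytes and 13.3% higher in progenitors (Fisher's exact test, adjusted p below 0.05). Of the 4 locus regions, 1 was called, the 33.3-kb region, with 9 of 24 progenitor and 0 of 18 monocyte libraries (two-sided Fisher's exact test, adjusted p = 0.0274). The progenitors were those of clones 5, 7, 15, 16, 17, 18, 19, 21 and 25. The filter of 5 libraries counts both stages together, and the 33.3-kb region met it through progenitors alone. It also passed in lists of 20000, with 22 of 23 progenitor against 4 of 12 monocyte libraries (Fisher's exact test, adjusted p = 0.00136), by the second score (0.00711) and with gaps of 500 bp merged (0.0311). The difference missed the threshold with the clone as a block (exact sign test, 6 clones against 0, adjusted p = 0.141) and without clones 16, 20 and 21 (Fisher's exact test, adjusted p = 0.104). Within clones 1 to 13 it was held by too few libraries to be tested. The monocyte lists of at least 20000 peaks were those of clones 1 to 13 without 3 and 10, and of clone 20. The progenitor lists of that length were of all clones but 11, so the stages there came from unlike sets of clones.

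The 23.7-kb region reached the 10000 highest in 22 of 24 libraries from progenitors and 16 of 18 from monocytes, with no difference detected (Fisher's exact test, adjusted p = 1). Among the 5000 highest it appeared in 17 of 21 monocyte libraries and in only 2 of 24 from progenitors (Fisher's exact test, adjusted p = 2.42e-05). At that length 12.3% of regions in the genome were higher in monocytes. Within whole lists the median of the 23.7-kb region was 89.8% in progenitors and 87.1% in the monocyte lists that held it. Ranked by the second score, it was among the 10000 highest in 15 of 18 monocyte libraries and 9 of 24 from progenitors (Fisher's exact test, adjusted p = 0.0218). The region past the 3′ edge reached the 20000 highest in 11 of 12 libraries from monocytes and in 0 of 23 from progenitors (Fisher's exact test, adjusted p = 1.82e-06), where 14.2% of regions were higher in monocytes. It met the filter through monocytes alone, and the stages came from the unlike sets of clones given above for that length. The innermost and middle edge regions, with 8 of 24 against 1 of 18 and 11 of 24 against 5 of 18 libraries, did not pass among the 10000 highest (Fisher's exact test, adjusted p = 0.164 and 0.583).

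Read against the genome, calls were common or rare depending on the alternative. For presence, the percent of regions called higher in monocytes and in progenitors was 12.3 and 14.9 with lists of 5000, 14.2 and 15.2 with lists of 20000, and 11.7 and 9.59 with gaps of 500 bp merged. It was 14.7 and 16 by the second score, 4.89 and 6.38 with the clone as a block, and 7.67 and 6.18 in clones 1 to 13. It was 11.2 and 9.95 with the commonest naming code and 12.4 and 9.27 without clones 16, 20 and 21. For anchor percentiles it was 0.492 and 1.8 with the block, 0.412 and 7.02 by the second score, 1.29 and 8.19 with normal scores, and 0.963 and 2.66 with gaps merged. It was 3.37 and 9.77 in clones 1 to 13 with the block, 2.36 and 21.7 with the commonest code, 1.41 and 4.35 without clones 16, 20 and 21, and 2.5 and 8.09 for regions held by at least 20 libraries.

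The balance within the locus was also read inside each list, as the ratio of a region's score to that of the 23.7-kb region. This measure was chosen after seeing the data and is given without a test. It treats the score as a linear quantity, which cannot be checked because the unit and scale of the score are not stated. The ratios are thus not fold differences in openness. They cover only lists that hold both peaks, and peaks were wider in monocyte lists (median 144 bp against 97 bp). The 23.7-kb region was itself higher in monocytes by anchor percentile. A lower ratio in monocytes can thus come from either of the 2 regions, and which of them was not tested. The 33.3-kb region had ratios of 0.160 to 1.84 (median 0.741) in 23 progenitor lists and 0.0176 to 0.173 (median 0.116) in 7 monocyte lists. The ranges overlap, since the lowest progenitor ratio lies under the highest monocyte ratio. In all 7 clones that could be compared the monocyte ratio was the lower.

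For the innermost edge region the ratio was 0.407 to 1.84 (median 0.749) in 23 progenitor lists and 0.0407 to 0.311 (median 0.198) in 12 monocyte lists, and the ranges did not overlap. The monocyte ratio was lower in 12 of 12 clones. All 12 of these were among clones 1 to 13, and such ratios were not worked out for other regions of the genome. For the middle edge region the medians were 0.818 and 0.267, lower in 9 of 10 clones, with clone 10 the exception. The outer edge region changed less, with medians of 0.411 and 0.269 and a lower ratio in 8 of 12 clones. The region past the 3′ edge went the other way in the lists of clones 1 to 13, where its ratio was higher in monocytes in 5 of 5 clones. The 2 remaining clones, 15 and 18, had the lower ratio in monocytes.

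**Figure D4:**
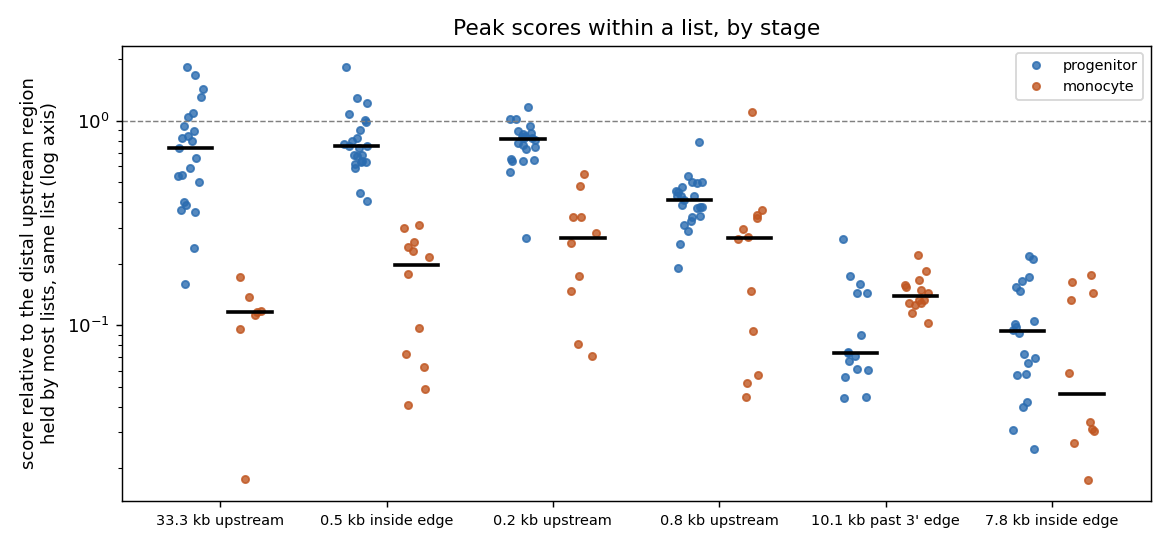
Score of 6 regions divided by that of the 23.7-kb upstream region in the same list (log axis), for progenitor (blue) and monocyte (orange) lists holding both peaks; bars are medians and the dashed line marks equal scores. Progenitor values reach above 1 for 3 regions, and the monocyte values of those regions stay at or below 0.548.

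Libraries of 1 stage also differed among themselves. Within progenitors the anchor percentiles of the innermost edge region and the 33.3-kb region went together (r = 0.765, rho = 0.717, n = 24), while the 23.7-kb region went with neither (r = 0.176 and 0.0101). Clone 21 held 38.0% in both of the first 2 regions, which weighs heavily in r. Other progenitor pairs had a higher r. These were the outer edge region with the innermost (r = 0.881, rho = 0.316) and with the 33.3-kb region (r = 0.774, rho = 0.351). The rare regions 1.83 and 1.52 kb inside the edge also did (r = 0.960, rho = 0.817), near the floor. The innermost edge and 33.3-kb regions went together in monocytes too (r = 0.840, rho = 0.764, n = 18), but at the floor of the scale. The innermost edge region stood at 0% to 0.215% there and the 33.3-kb region at 0% to 0.0307%, with medians of 0%. Each clone has 1 library per stage, so differences between clones and between libraries cannot be told apart, and list length enters all the values. Whether a clone that held a region as progenitor also held it as monocyte could be tested for 1 locus region in lists of 10000, the middle edge region. There, 2 clones held it in both stages, 4 as progenitors alone, 3 as monocytes alone and 9 in neither (Fisher's exact test, p = 1, adjusted p = 1). Over the genome 0 of 3082 regions passed this test, or 0%, and 168 had an unadjusted p below 0.05. In lists of 20000 the outer edge region could be tested, with 7 clones in both stages, 1 as progenitor alone, 0 as monocyte alone and 3 in neither (Fisher's exact test, p = 0.0242, adjusted p = 0.633).

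Progenitor lists alone held 11 regions in at least 3 lists and 5 in fewer. The 11 were 57.9% of the 19 locus regions with at least 3 progenitor lists, against 63.2% of such regions over the genome. Past the 3′ edge, the regions at 7.81 and 4.15 kb were in 19 and 10 progenitor lists. Upstream, regions at 10.4, 38.7, 41.4, 46.3, 50.1 and 51 kb were in 9, 3, 7, 8, 4 and 9. The 5 in fewer lists lay 6.64 kb inside the 5′ edge and 15.9, 16.4, 37.9 and 41.7 kb upstream, in 1 or 2 lists each. The 8 more frequent ones stood low where present, with median within-list percentiles of 10.4% to 29.2%. The other 3 of the 11 lay 1.83, 1.52 and 1.13 kb inside the 5′ edge, in 5, 5 and 9 lists, and had medians of 75.2%, 75.9% and 71.3%. They were thus rare but high within their lists, beside the edge cluster, in clones 1, 3, 4, 8, 10, 12, 15, 16, 18, 19 and 20. Against the anchors they stood near 0, with highest progenitor values of 0.215%, 0.307% and 0.0614%. A region 63.7 kb upstream was in 15 progenitor lists and 1 monocyte list, that of clone 12.

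Monocyte lists alone held 3 regions, each in 1 list. Those 4.71 and 4.27 kb inside the 5′ edge, in the monocytes of clones 20 and 21, were the highest locus peaks of those libraries. The other, 34 kb upstream, was in the monocytes of clone 21. The list of clone 20 was the longest of the monocytes, with 38786 peaks, and held no other region of the locus. Rare regions of both stages lay 23.4 kb upstream, in 2 lists of each, and 28.9 kb upstream, in 3 monocyte lists and 1 progenitor list.

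Among the 3259 anchors, the regions whose anchor percentile over the 42 libraries was most like that of the 23.7-kb region were found by Pearson correlation. The closest lay on chromosome 18 (r = 0.932). It was followed by chromosome 17, 6951231 to 6951578 (r = 0.879), chromosome 16, 95950436 to 95950782 (r = 0.872), chromosome 11, 98300142 to 98300431 (r = 0.865), and chromosome 2, 91490100 to 91490487 (r = 0.865). Over all anchors r ran from -0.860 to 0.932 (median -0.0212). The stage difference enters these values, and within progenitors alone the 5 correlations were 0.45 to 0.747. Within monocytes alone they were 0.811 to 0.944. There the 23.7-kb region stood at 97.6% and 97.5% in clones 18 and 25 and at 42.8% in the next highest, clone 16. These extreme values weigh heavily in a Pearson correlation. No genes are named for these regions, since no annotation of mm9 was used.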

How the data were processed

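ATAC-seq was measured in 48 libraries, and 1 peak list per library was used. The 2 score columns, deposited by the authors without a header, have no stated unit. Both served to rank peaks within a list, and the first also to form ratios within a list. Reads were aligned with BWA to mm9, per the submitters' processing notes, while peak caller, filters and read shift are unstated there and in the labels. Depth per library is unknown, and the number of peaks per list stands in for it. Members and lists were chosen with earlier results of these data known.

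Lists were merged and tested with Python 3.11.15, SciPy 1.17.1 and limma 3.58.1 on whole-genome tables of regions held by at least 5 libraries, with Benjamini-Hochberg adjustment at 0.05, after tests on simulated data. The 6 monocyte lists under 10000 peaks (clones 15, 17, 19, 22, 23 and 24) entered no main stage test, and those of clones 15, 17 and 23 entered the comparison in lists of 5000. Clone numbers pair the libraries because both stages of a number are the same clone, per the labels. The block fits used 18 clones. Alternatives were other list lengths, gaps of 500 bp, the second score, normal scores and subsets of clones. Full descriptions went to regions in at least 24 lists, tested in lists of 10000 or called. The region 63.7 kb upstream met none of these and was chosen after its values were seen. Other genes of the Gfi1 pathway were not analysed here.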

Additional observations from a re-analysis of the deposited data

Results flagged for a closer look

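The monocyte lists of clones 19, 22 and 24 held fewer than 5000 peaks and entered no stage comparison. Of these 3 lists, 2 still held the 23.7-kb upstream region as a peak, those of clones 19 and 24. The list of clone 22, with 231 peaks, did not. Where held, the region stood at only 8.32% of the list in clone 19 and at 78.4% in clone 24. How often comparable regions remain in such short lists was not worked out.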

How the results depend on the processing

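Directions held for the innermost edge, middle edge and 33.3-kb regions under every alternative that tested them, but calls did not. For anchor percentiles, the main counts of locus regions were 1 higher in monocytes and 1 higher in progenitors. The former was 0 with the replicate block (clone as a term) and by the second score, and 2 with normal scores, in clones 1 to 13 (with or without the block, which was added after seeing the data) and with the commonest naming code. The latter was 3 by the second score and with normal scores, 0 with gaps of 500 bp merged, and 2 in clones 1 to 13 (with or without the block), with the commonest naming code and without clones 16, 20 and 21. For presence among the highest peaks, the main counts were 0 and 1. The former was 1 with lists of 5000 and by the second score, and 2 with lists of 20000. The latter was 0 with the replicate block (sign test) and without clones 16, 20 and 21. It was also 0 with lists of 5000, in clones 1 to 13 and with the commonest code. Under those settings the 33.3-kb region was held by too few libraries to be tested.

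Signs reversed as follows. Presence of the 23.7-kb region went from -2.78 points to 72.6 (lists of 5000), 45.8 (second score, called at adjusted p = 0.0218 by Fisher's exact test), 7.69 (clones 1 to 13), 11.1 (commonest code) and 4.76 (without clones 16, 20 and 21). The anchor percentile of the outer edge region went from -0.114 to 1.37 points in clones 1 to 13 (with or without the block) and to 0.0197 without clones 16, 20 and 21. The region past the 3′ edge went from 1.55 to -0.690 by the second score. The region inside the gene went from 0.00597 to -0.0729 by the second score and to -0.00325 with the commonest code. By the second score the rise of the 23.7-kb region was 3.32 points (limma, adjusted p = 0.729), so its anchor percentile call was lost there while its presence call was gained. The causes were not tested. Over the genome the anchor calls numbered 876 and 2897, and 462 to 3663 and 2015 to 20816 under the alternatives. Presence calls numbered 1588 and 1833, and 674 to 3977 and 777 to 4257. A low region and an absent one cannot be told apart in a short list. The block changed no call beside those given here and in the report.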
